A study of Mus musculus with 36 samples.

Results

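The enzymes that crosslink collagen were followed in 36 arrays of Bhas 42 cells. They comprised the lysyl oxidase genes Lox, Loxl1, Loxl2, Loxl3 and Loxl4 and the lysyl hydroxylase genes Plod1, Plod2 and Plod3. Members were chosen by name, as the probes whose accession maps to one of these 8 mouse symbols. All 8 genes were measured, on 13 probes, among 32490 features tested. Of these features, 17872 had a gene symbol and 14618 were known by their probe's accession alone, so that a gene can appear there under more than 1 accession.

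Collagen crosslinking begins inside the cell, where lysyl hydroxylases of the endoplasmic reticulum convert lysines of newly made collagen chains to hydroxylysines, using iron, ascorbate and 2-oxoglutarate. Outside the cell, the copper-dependent lysyl oxidases oxidise lysines and hydroxylysines to reactive aldehydes, which condense into the covalent links that hold collagen and elastin fibres together. Fibroblasts are a main source of these enzymes and of their fibrillar collagen substrates.

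Bhas 42 is a line of mouse embryo fibroblasts, obtained from BALB/c 3T3 cells by introducing the v-Ha-ras oncogene, and is used to score morphological transformation. Treated and control cultures alike carry this oncogene and come from 1 cell line. Cells were exposed from day 4 after seeding and were collected 48 h later, on day 6. There were 9 groups of 4 arrays. NM-203, a synthetic amorphous silica, was given at 1, 2 and 5 µg/cm², and DE (diatomaceous earth, a silica of fossil diatoms) at 5 µg/cm²; both were set against the same 4 arrays of 2% water. Min-U-Sil 5, a ground crystalline quartz, was given at 20 µg/cm² and had its own 2% water control. TPA (12-O-tetradecanoylphorbol-13-acetate), a phorbol ester that activates protein kinase C and serves as a tumour promoter, was given at 0.05 µg/ml against 0.1% DMSO. The series was made as 4 independent experiments, and which arrays belong to which is not given in the labels, so p-values measure only the spread between these samples.

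Levels are given as log2 of the spot intensity relative to the 75th percentile of its own array, so that 0 is the 75th percentile. Levels of different genes come from different probes and are not set against each other. A gene was called where its limma adjusted p, over all 32490 features, was under 0.05. Errors after ± are standard errors of the limma fit with n = 4 arrays per group unless marked SD. Each array had 55.1% to 76.2% of its probes well above background. The probe that stood for each of the 8 genes was well above background on all 36 arrays, and the number of arrays limits the precision. In RNA from whole cultures, fewer cells expressing a gene and less of its RNA per cell cannot be told apart.

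The fibroblast label was checked against markers. All 9 fibroblast markers (Col1a1, Col1a2, Vim, Pdgfra, Pdgfrb, Thy1, Dcn, Lum and S100a4) were well above background on all 36 arrays. Of the markers of other cell types, Ptprc, Epcam, Cdh1 and Tek had no probe that passed the filter on dim probes, and Adgre1, Krt18, Kdr and Cdh5 were above background on 7, 10, 9 and 22 arrays. Cd68, Csf1r, Lyz2, Aif1, Krt8, Krt5 and Pecam1 were above background on all 36. The slides on which arrays were hybridised and the day of scanning also differed between groups. All NM-203 2 µg/cm², Min-U-Sil 5 and Min-U-Sil water arrays were scanned on the second of 2 days. All water, DE, TPA and DMSO arrays were scanned on the first. NM-203 1 and 5 µg/cm² were split, with 1 array of each scanned on the second day and the rest on the first. The Min-U-Sil water control differed from the other water control in 24.5% of all features. Each treatment was therefore read against its own control, and within-slide values stand beside the main results. A single slide held as few as 1 array of a group, and within-slide values resting on 1 array of a group are given without a p-value.

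At 5 µg/cm², NM-203 lowered 4 of the 8 enzyme genes and raised 0. The 4 were Loxl1, Loxl3, Plod1 and Lox. With scan day as a term in the limma fit, their changes were -1.43, -0.79, -0.63 and -0.65 (adjusted p = 6.67e-08, 6.54e-05, 0.000613 and 8.76e-06). Over all features tested, 19.1% were lower and 14% higher in this comparison. The median log2 change of the 8 members was -0.45, against 0.01 over all features.

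**Figure D1:**
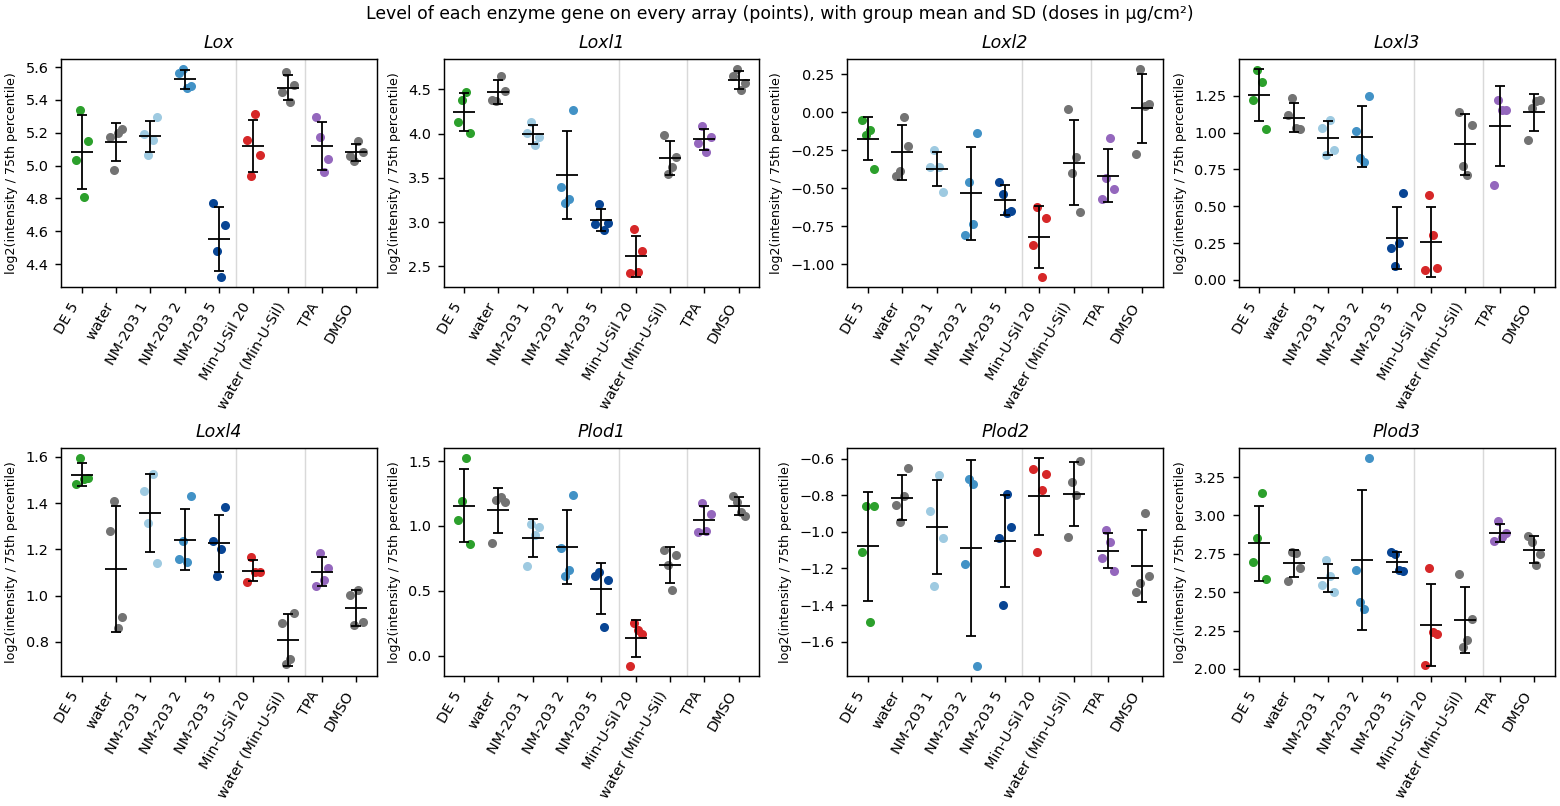
Level of each of the 8 genes on every array, as log2 of intensity over the array's 75th percentile, by group (points, arrays; bars, group mean and SD, n = 4; doses in µg/cm²). Loxl1 lies at 3.02 with NM-203 5 µg/cm², against 4.47 in water, and at 2.61 with Min-U-Sil 5, against 3.72 in its own water. The NM-203 2 µg/cm² arrays were scanned on another day than their water.

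Loxl1, which in mice is needed to lay down and renew elastic fibres, moved most. Its levels were 2.98, 3.20, 2.92 and 2.99 in cells given NM-203 at 5 µg/cm², against 4.38, 4.37, 4.65 and 4.48 in water. Every NM-203 array lay more than 1 log2 unit below every water array. The log2 change was -1.45 ± 0.16, or 2.72-fold lower (adjusted p = 1.43e-08). It was -1.53 and -1.45 within the 2 slides that carried both groups, each with 1 water array.

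Loxl3, which mouse embryos need for the palate and the spine, gave 0.21, 0.09, 0.25 and 0.59 in NM-203 5 µg/cm² cells, against 1.12, 1.24, 1.03 and 1.02 in water. The groups did not overlap, and the highest NM-203 array was well short of the lowest water array. It fell by 0.82 on the log2 scale (SE 0.14, 1.76-fold, adjusted p = 1.86e-05). Within slides the change was -0.60 and -0.94.

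Plod1, the hydroxylase that acts on lysines of the collagen triple helix, gave 0.62, 0.65, 0.22 and 0.59 in NM-203 5 µg/cm² cells, against 0.87, 1.20, 1.22 and 1.19 in water. Here too the groups stayed apart, although 1 NM-203 array and 1 water array lay well below the rest of their groups. The log2 change was -0.60 ± 0.13 (1.52-fold lower, adjusted p = 0.000575), and -0.78 and -0.58 within slides.

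Lox, the founding lysyl oxidase, gave 4.77, 4.48, 4.32 and 4.64 in NM-203 5 µg/cm² cells, against 5.18, 4.97, 5.20 and 5.22 in water. The ranges did not overlap. The log2 change was -0.59 ± 0.10 (1.51-fold lower, adjusted p = 3.13e-05), and -0.74 and -0.72 within slides. A second Lox probe gave a smaller change of -0.36 ± 0.13 (adjusted p = 0.0257).

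Of the other 4 genes, Loxl2, which crosslinks collagen IV of basement membranes, had a log2 change of -0.31 ± 0.15 at this dose and did not pass (adjusted p = 0.109), with arrays of both groups not overlapping. The changes of Loxl4, Plod2 and Plod3 were 0.11, -0.23 and 0.01, with adjusted p of 0.484, 0.381 and 0.971.

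**Figure D2:**
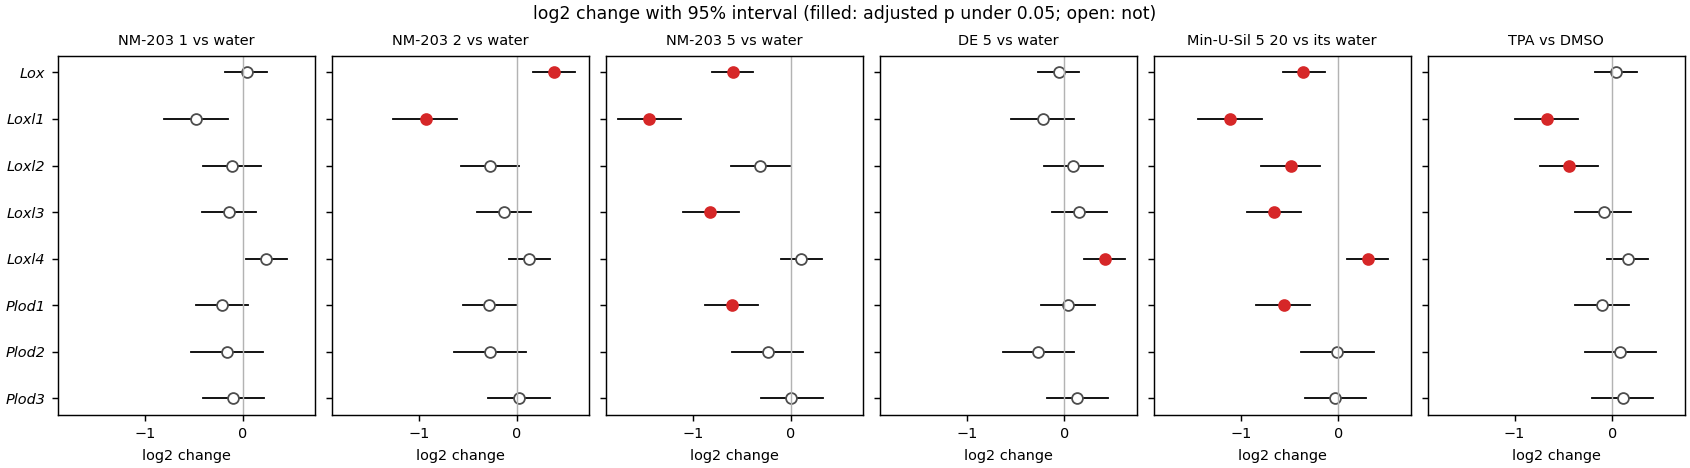
The log2 change of each gene (horizontal axis) with its 95% interval in the 6 comparisons of a treatment with its own control (filled, adjusted p under 0.05; open, not; doses in µg/cm²). Loxl1 lies at -1.45 for NM-203 5 µg/cm² and -1.11 for Min-U-Sil 5, while the Plod2 and Plod3 intervals include 0 in all 6 panels.

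The lower doses of NM-203 gave fewer calls. At 1 µg/cm², 0 of the 8 genes passed limma's threshold, 2 had an unadjusted p under 0.05, and 0.0862% of all features were called. Loxl1 was the gene whose groups did not overlap, a property that was not counted over all features. It gave 4.00, 4.13, 3.87 and 3.96 in NM-203 1 µg/cm² cells, against 4.38, 4.37, 4.65 and 4.48 in water. The log2 change was -0.48 ± 0.16, with an adjusted p of 0.41.

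At 2 µg/cm², 1 gene was lower (Loxl1) and 1 was higher (Lox), where 8.86% of all features were lower and 16.2% higher. Loxl1 gave 3.39, 3.22, 3.26 and 4.27 in NM-203 2 µg/cm² cells, and the last of these lay close to the water arrays. The log2 change was -0.93 ± 0.16 (1.91-fold lower, adjusted p = 7.44e-05), and -1.18 without that array. The same array also had the highest Loxl2, Loxl3, Loxl4, Plod1 and Plod3 levels of its group, at -0.13, 1.25, 1.43, 1.24 and 3.37. It had the lowest Plod2 level, at -1.73. Without this array, Loxl2 and Plod1 were lower as well, by -0.40 (adjusted p = 0.042) and -0.41 (adjusted p = 0.0201).

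Lox went the other way at this dose. It gave 5.56, 5.59, 5.47 and 5.48 in NM-203 2 µg/cm² cells, all above the water arrays, a log2 change of 0.38 ± 0.10 (1.30-fold higher, adjusted p = 0.00719). No slide carried both NM-203 2 µg/cm² and water, and the scan days of the groups were separate. With scan day as a term, the Lox change was 0.16 (adjusted p = 0.642) and the Loxl1 change -0.89 (adjusted p = 0.0327). Against the Min-U-Sil water arrays, which were scanned on the same day, NM-203 2 µg/cm² gave changes of 0.05 for Lox (adjusted p = 0.754) and -0.19 for Loxl1 (adjusted p = 0.432). On the second Lox probe the change was 0.36 (adjusted p = 0.0465) against that water and 0.29 (adjusted p = 0.0812) against the other water. Against the Min-U-Sil water Loxl4 was higher, by 0.43 (adjusted p = 0.00445), and 15.6% of all features were called. The other Loxl4 probes gave 0.05 and 0.11 and were not called (adjusted p = 0.844 and 0.535). The 2 water controls themselves differed in 4 of the 8 genes, where 18.8% of all features were higher and 5.67% lower in the Min-U-Sil water. In the Min-U-Sil water, Lox was higher by 0.33 (adjusted p = 0.0222), and Loxl1, Plod1 and Loxl4 had log2 differences of -0.75, -0.42 and -0.31 (adjusted p = 0.002, 0.0237 and 0.0299). The second Lox probe gave -0.07 between the controls (adjusted p = 0.722), and the other Loxl4 probes -0.22 and 0.10 (adjusted p = 0.356 and 0.56). How much of the NM-203 2 µg/cm² changes goes with dose and how much with scan day cannot be told apart.

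Set directly against the lowest dose, NM-203 at 5 µg/cm² gave lower levels of Lox, Loxl1, Loxl3 and Plod1, with log2 differences of -0.63, -0.97, -0.68 and -0.39 (adjusted p = 1.78e-05, 1.59e-05, 0.000275 and 0.0264). These were 4 of 8 members, where 15.5% of all features were lower at 5 than at 1 µg/cm². The Plod1 call was lost, at -0.29, without NM-203 5 µg/cm² replicate 3, and at -0.36, -0.38 and -0.36 without NM-203 1 µg/cm² replicates 2, 3 and 4 in turn.

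DE at 5 µg/cm² left 7 of the 8 genes without a call, and 1.01% of all features were called. The exception was Loxl4, which has scavenger receptor domains like those of Loxl2 and Loxl3. It gave 1.48, 1.59, 1.50 and 1.51 in DE cells, against 1.28, 1.41, 0.86 and 0.91 in water. DE arrays lay close together above a wide spread of water arrays, with a log2 change of 0.41 ± 0.10 (1.33-fold higher, adjusted p = 0.0457). The call was lost without any 1 of the 4 DE arrays, or without water replicate 3 or 4. The change was 0.57, 0.16 and 0.69 within 3 slides.

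Loxl4 was measured by 3 probes that did not move together. The probe standing for the gene gave 0.41 in DE cells, while the others gave 0.32 ± 0.17 and 0.09 ± 0.12, with adjusted p of 0.527 and 0.891. At NM-203 5 µg/cm² the third probe, A_55_P2044143, fell by 0.46 (SE 0.12, adjusted p = 0.0028), with 0.59, 0.45, 0.29 and 0.37 in NM-203 cells, against 0.92, 1.10, 0.77 and 0.74 in water. Neither of the other probes was called there. The direction of Loxl4 thus depended on the probe read.

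**Figure D3:**
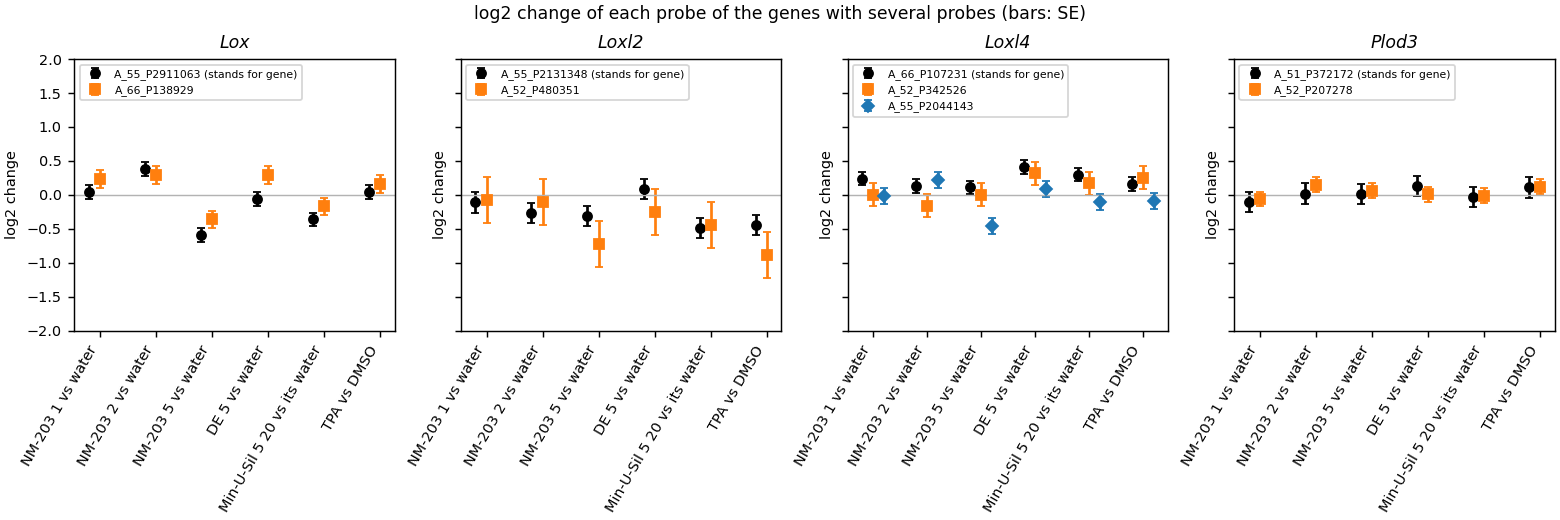
The log2 change (vertical axis; bars, SE) of each probe of the 4 genes measured by more than 1 probe, in the 6 comparisons of a treatment with its own control (doses in µg/cm²). The Loxl4 probes part at NM-203 5 µg/cm², where the probe standing for the gene gives 0.11 and A_55_P2044143 gives -0.46, while both Plod3 probes stay between -0.10 and 0.15.

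At an equal mass dose of 5 µg/cm², NM-203 and DE were compared directly. Of the 8 genes, 6 were lower with NM-203, where 15.2% of all features were. Loxl1 averaged 3.02 ± 0.12 with NM-203 and 4.25 ± 0.22 with DE (SD, n = 4 each), a log2 difference of -1.22 (adjusted p = 4.04e-07). Loxl3 followed, at 0.29 ± 0.21 with NM-203 and 1.25 ± 0.17 with DE (SD, n = 4 each), a difference of -0.97 (adjusted p = 1.79e-06).

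Plod1 and Lox differed by -0.64 and -0.53 (adjusted p = 0.000365 and 0.00016). Loxl2 and Loxl4 differed by -0.40 and -0.30, close to the threshold (adjusted p = 0.0359 and 0.0275). The Loxl2 call was lost without NM-203 replicate 2, 3 or 4 or DE replicate 1, 2 or 3, with values of -0.36 to -0.42. The second Loxl2 probe gave -0.47 and was not called (adjusted p = 0.346). The Loxl4 call was lost without NM-203 replicate 2 or 3 or DE replicate 2, with values of -0.25 to -0.29, and with slide as a block (-0.26, adjusted p = 0.0642). The other Loxl4 probes were also negative here, at -0.54 (adjusted p = 0.000577) and -0.31 (adjusted p = 0.175). In this comparison, scaling on the 75th percentile placed the whole set of features at -0.125 relative to scaling on the median of the features. Median scaling left 3 calls, Loxl1, Loxl3 and Plod1. For Plod2 and Plod3 the differences were 0.03 and -0.12, with 95% intervals from -0.34 to 0.40 and from -0.44 to 0.19.

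Min-U-Sil 5, set against its own water, lowered 5 of the 8 genes and raised 1. Over all features, 13.9% were lower and 11.6% higher. The members' median log2 change was -0.42, against 0.04 over all features.

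Loxl1 again moved most, at 2.43, 2.92, 2.44 and 2.67 in Min-U-Sil 5 cells, against 3.99, 3.55, 3.62 and 3.73 in their water. The ranges did not overlap, and the log2 change was -1.11 ± 0.16 (2.16-fold lower, adjusted p = 2.88e-06). Within slide 4, with 3 treated and 2 water arrays, it was -0.91 (adjusted p = 0.0101). Within slide 5, with 1 treated array, it was -1.43.

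Loxl3 gave 0.07, 0.58, 0.30 and 0.08 in Min-U-Sil 5 cells, against 1.14, 0.77, 0.71 and 1.05 in their water, and fell by 0.66 (SE 0.14, adjusted p = 0.000454). Plod1 gave -0.08, 0.25, 0.20 and 0.16 in Min-U-Sil 5 cells, against 0.82, 0.70, 0.51 and 0.77 in their water, and fell by 0.56 (SE 0.13, adjusted p = 0.00166). For both genes the treated arrays all lay below the control arrays. Within slide 4 neither gene was called, at -0.50 for Loxl3 and -0.49 for Plod1 (adjusted p = 0.077 and 0.0735). Within slide 5 the changes were -0.79 and -0.60.

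Lox and Loxl2 were lower by less. The log2 change of Lox was -0.36 ± 0.10 (adjusted p = 0.0101), with 5.16, 4.94, 5.31 and 5.07 in Min-U-Sil 5 cells, against 5.45, 5.57, 5.38 and 5.49 in their water. It was not called without Min-U-Sil 5 replicate 2 (-0.30), and its second probe gave -0.17 (adjusted p = 0.364). It was -0.42 within slide 4 (adjusted p = 0.0693) and -0.16 within slide 5. Loxl2 changed by -0.49 ± 0.15 (adjusted p = 0.012) with overlapping arrays, -0.88, -0.62, -1.08 and -0.70 in Min-U-Sil 5 cells, against 0.02, -0.40, -0.30 and -0.65 in their water. That call was lost without Min-U-Sil 5 replicate 3 (-0.40) or water replicate 1 (-0.37). The change was -0.39 within slide 4 (adjusted p = 0.269) and -0.77 within slide 5. The second Loxl2 probe gave -0.44 and was not called (adjusted p = 0.395).

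Loxl4 was the member that was higher, at 1.06, 1.17, 1.10 and 1.10 in Min-U-Sil 5 cells, against 0.88, 0.70, 0.72 and 0.92 in their water. The arrays did not overlap, and the log2 change was 0.30 ± 0.10 (adjusted p = 0.0292). Its other probes gave 0.17 and -0.10 and were not called (adjusted p = 0.521 and 0.617). Leaving out replicate 2 or 4 of Min-U-Sil 5, or replicate 2 or 3 of its water, ended the call, with values of 0.26 to 0.30. It was 0.40 within slide 4 (adjusted p = 0.0203) and 0.20 within slide 5.

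TPA lowered 2 of the 8 genes, both lysyl oxidases, and raised 0, where 6.78% of all features were lower and 4.89% higher. The members' median change was -0.02, against -0.04 over all features. Loxl1 gave 3.90, 4.09, 3.80 and 3.96 in TPA cells, against 4.65, 4.73, 4.49 and 4.57 in DMSO. The groups did not overlap, and the log2 change was -0.67 ± 0.16 (1.59-fold lower, adjusted p = 0.00426). It was -0.55 within the 1 slide that carried both, with 1 DMSO array.

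Loxl2 gave -0.57, -0.43, -0.17 and -0.50 in TPA cells, against -0.27, 0.28, 0.04 and 0.05 in DMSO. The groups overlapped, since 1 TPA array lay above the lowest DMSO array. The log2 change was -0.44 ± 0.15 (1.36-fold lower, adjusted p = 0.0442), a call lost without TPA replicate 1, 2 or 4 or without DMSO replicate 2, 3 or 4. Within the slide the change was -0.34. The second Loxl2 probe gave -0.88 and was not called (adjusted p = 0.0936). Lox, Loxl3 and Plod1, which were lower with NM-203 5 µg/cm² and with Min-U-Sil 5, had changes of 0.04, -0.09 and -0.11 with TPA and were not called (adjusted p = 0.884, 0.753 and 0.71).

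The change made by NM-203 at 5 µg/cm² was then set against that made by TPA, each relative to its own control. It was more negative for Lox, Loxl1 and Loxl3, by -0.63 ± 0.15, -0.77 ± 0.23 and -0.72 ± 0.20 (adjusted p = 0.00305, 0.0175 and 0.0102). These were 3 of the 8 members, where 7.05% of all features had a more negative change with NM-203. All 3 calls were lost under median scaling, with values of -0.54, -0.69 and -0.64, and the Loxl1 call also with slide as a block (-0.67, adjusted p = 0.0509). For Plod1 the difference was -0.50 ± 0.19 (adjusted p = 0.081), and it was called, at -0.58, without water replicate 1.

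Between the NM-203 5 µg/cm² change and the Min-U-Sil 5 change, 0 of the 8 members differed by limma, and 0 had an unadjusted p under 0.05, where 0.2% of all features were called. The difference for Loxl1 was -0.34, with a 95% interval from -0.80 to 0.13. That interval leaves room for a difference, so the changes cannot be called equal. Between the Min-U-Sil 5 and TPA changes, 0 of the 8 were called and 3 had an unadjusted p under 0.05 (Lox, Loxl3 and Plod1, with differences of -0.39, -0.57 and -0.46), where 5.89% of all features were called. Loxl3 was called there without Min-U-Sil 5 replicate 2 (-0.67) or TPA replicate 1 (-0.70). Between DMSO and water, limma called 0 of the 8 genes and 0% of all features. Plod2, with a log2 difference of -0.37, alone had an unadjusted p under 0.05.

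The 3 lysyl hydroxylases differed in their calls, and the differences between these genes were not tested. Plod1 was lower with NM-203 5 µg/cm² and with Min-U-Sil 5. Plod2, which hydroxylates the telopeptides at the ends of collagen chains, and Plod3, which also adds sugars to hydroxylysine, were called in 0 of the 6 comparisons. Plod2 changes ran from -0.27 to 0.08. Its 95% interval at NM-203 5 µg/cm² was -0.60 to 0.13, which leaves room for a moderate decrease. Plod3 changes ran from -0.10 to 0.13, with an interval of -0.30 to 0.33 at NM-203 5 µg/cm². Its 2 probes gave 0.01 and 0.06 there. Plod3 averaged 2.70 ± 0.07 in NM-203 5 µg/cm² cells and 2.69 ± 0.09 in water (SD, n = 4 each).

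The upstream sequences of Plod1 and Plod3 are shown because, of these related genes, Plod1 was called at NM-203 5 µg/cm² and Plod3 was not. RefSeq promoter sequence (GRCm38.p6) was held for 3 members, Loxl4, Plod1 and Plod3. The 250 bases before the annotated start were searched on both strands for the GC box GGGCGG, bound by Sp1 family factors, for the hypoxia element core ACGTG and for the AP-1 site TGANTCA, where N is any base. Capitals mark matches to the GC box or the hypoxia core, in either orientation. The GC box motif was present in 32.9% of 27025 mouse promoters of the same length, the hypoxia core in 16.6% and the AP-1 site in 6.9%.
Plod1, chr4:147936777-147937026, minus strand: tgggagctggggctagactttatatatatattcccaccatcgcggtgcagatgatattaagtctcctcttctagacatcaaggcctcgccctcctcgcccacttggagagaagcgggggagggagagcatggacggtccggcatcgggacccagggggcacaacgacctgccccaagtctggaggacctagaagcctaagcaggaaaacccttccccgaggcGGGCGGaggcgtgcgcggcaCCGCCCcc
Plod3, chr5:136986769-136987018, plus strand: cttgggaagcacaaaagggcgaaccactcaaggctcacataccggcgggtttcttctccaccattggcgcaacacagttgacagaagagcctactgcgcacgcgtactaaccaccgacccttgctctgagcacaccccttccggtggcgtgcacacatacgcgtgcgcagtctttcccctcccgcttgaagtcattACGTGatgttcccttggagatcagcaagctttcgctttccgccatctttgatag
The Plod1 window held 2 GC box matches and 0 hypoxia cores, and the Plod3 window held 0 GC box matches and 1 hypoxia core. Loxl4 held 3 GC box matches and 0 hypoxia cores. None of the 3 windows held the AP-1 letters. These matches describe the letters only and were not tested as binding sites. GC content was 61.6% in the Plod1 window, 55.6% in that of Plod3 and 76.0% in that of Loxl4.

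Over the 9 groups, Loxl1 means ran in the order DMSO, water, DE, NM-203 1 µg/cm², TPA, Min-U-Sil water, NM-203 2 µg/cm², NM-203 5 µg/cm² and Min-U-Sil 5, from 4.61 down to 2.61. Neighbours in this order overlapped in range except NM-203 2 and 5 µg/cm². The order sets groups of different scan days and controls side by side, so it does not rank the treatments. Lox, on the probe standing for the gene, had a different order, with NM-203 2 µg/cm² and the Min-U-Sil water highest at 5.53 and 5.47. NM-203 5 µg/cm² was alone at the bottom at 4.55, below the range of every other group. On the second Lox probe the Min-U-Sil water averaged 2.57 and the other water 2.64, and NM-203 5 µg/cm² overlapped Min-U-Sil 5. For Loxl3, NM-203 5 µg/cm² and Min-U-Sil 5 formed the low end at 0.29 and 0.26 and overlapped each other. For Plod2 and Plod3 each group overlapped its neighbour in the order of means.

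The genes whose levels most resembled each member over the 36 arrays were named by Pearson's r, as a description without a test, since arrays share treatments and slides. Loxl1 was closest to Scara3, Tmem119 and Fzd2 (r = 0.97 for each). Plod1 was closest to Mlec (0.96), Creb3l1 (0.95), which encodes a transcription factor of the endoplasmic reticulum, and Btbd2 (0.94). Loxl3 was closest to Col6a2 (0.92), a collagen VI chain, with Gstt3 and Mxra8 at 0.91. Lox was closest to Rida, Ccpg1 and Pcmtd2 (0.93 for each), and Plod3 to Fkbp8 (0.95), Tmem115 (0.94) and Pfkl (0.92). The nearest genes of Loxl2, Plod2 and Loxl4 were Ttc16 (0.86), Gm14305 (0.80) and Plb1 (0.77).

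The wider pathway was followed in 6 gene lists. Over all features, 19.1% were lower and 14% higher with NM-203 5 µg/cm², 13.9% and 11.6% with Min-U-Sil 5, and 6.78% and 4.89% with TPA. The list counts below are to be read beside these shares. The substrates of crosslinking, which were 10 collagen chains and elastin (Eln), had the most negative median of the 6 lists with NM-203 5 µg/cm², with Min-U-Sil 5 and with TPA. Of the 11, 9 were lower with NM-203 5 µg/cm² (median -1.38), 9 with Min-U-Sil 5 (median -1.21) and 8 with TPA (median -0.67), and 0 were higher in each. Every call was a collagen chain; Eln had changes of -0.28, 0.03 and -0.65 and was not called (adjusted p = 0.637, 0.966 and 0.268). At NM-203 2 µg/cm², 5 of the 11 were lower, where 8.86% of all features were. With DE 1 was lower, where 1.01% of all features were called. Col5a3, a minor fibril-forming chain, averaged -1.66 in NM-203 5 µg/cm² cells and 0.94 in water, a change of -2.59 ± 0.16 (adjusted p = 3.65e-13). In Min-U-Sil 5 cells it changed by -1.97 ± 0.16 (adjusted p = 2.48e-10). With TPA, Col5a2 and Col5a1, which form collagen V, changed by -1.19 and -1.09 (adjusted p = 1.99e-07 and 2.81e-07). Col5a2 was the DE call, at -0.72 ± 0.14 (adjusted p = 0.00477), and Col3a1 changed by -0.94 at NM-203 2 µg/cm² (adjusted p = 2.66e-05). Col3a1 averaged 5.07 at that dose, 5.24 in the Min-U-Sil water of the same scan day and 6.0 in water. For list genes too, dose and scan day cannot be told apart at NM-203 2 µg/cm².

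Among 13 genes of procollagen processing and fibre assembly, 9 were lower with NM-203 5 µg/cm² and 0 higher, 9 lower and 1 higher with Min-U-Sil 5, and 2 lower and 1 higher with TPA. The gene that was higher with Min-U-Sil 5 was Tll2, at 1.32 ± 0.43 (adjusted p = 0.0222), named after its values were seen. Its probe was well above background on 3 of 4 treated arrays and 1 of 4 water arrays. Postn, which encodes periostin, a matricellular protein that binds collagen, had a level of 0.50 in NM-203 5 µg/cm² cells and 3.97 in water, a change of -3.47 ± 0.23 (adjusted p = 1.1e-12). It changed by -3.70 with Min-U-Sil 5 and by -3.95 with TPA (adjusted p = 1.42e-12 and 7.51e-13), and by -2.07 at NM-203 2 µg/cm² (adjusted p = 2.29e-07). Postn averaged 1.91 at NM-203 2 µg/cm² and 2.75 in the Min-U-Sil water of the same scan day. Fmod, a proteoglycan that binds collagen fibrils, changed by -2.90 ± 0.58 with NM-203 5 µg/cm², by -1.82 with Min-U-Sil 5 and by -1.73 at NM-203 2 µg/cm² (adjusted p = 0.000157, 0.0185 and 0.0277). Fmod averaged 0.84 at NM-203 2 µg/cm², 1.45 in the Min-U-Sil water and 2.56 in the other water.

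Tgm2, which encodes a transglutaminase that makes a different kind of crosslink, moved in opposite directions. It changed by -2.46 ± 0.26 with NM-203 5 µg/cm² (adjusted p = 7.25e-09), where 1 of 4 treated arrays was well above background. With Min-U-Sil 5 it changed by -1.74 (adjusted p = 5.96e-06). With TPA it was higher by 1.14 ± 0.26 (adjusted p = 0.00307). The procollagen C-proteinase Bmp1, named after its values were seen, was lower by -1.50 with NM-203 5 µg/cm² and -1.13 with Min-U-Sil 5 (adjusted p = 8.67e-12 and 5.08e-09).

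**Figure D4:**
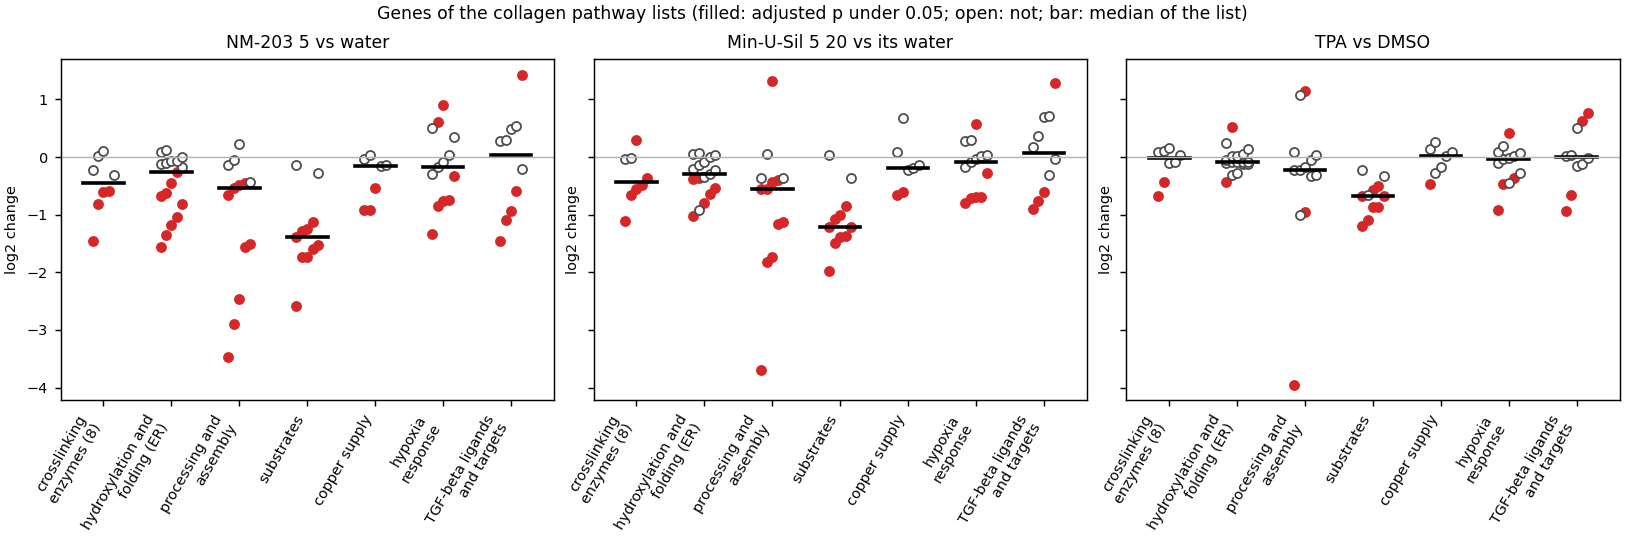
The log2 change (vertical axis) of each gene of the 8 crosslinking enzymes and the 6 pathway lists in 3 comparisons (filled, adjusted p under 0.05; open, not; bars, list medians). The substrates, 10 collagen chains and elastin, have medians of -1.38, -1.21 and -0.67, and the enzymes -0.45, -0.42 and -0.02, for NM-203 5 µg/cm², Min-U-Sil 5 and TPA in that order.

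Of 17 genes that hydroxylate and fold collagen in the endoplasmic reticulum beside the Plod genes, 9 were lower with NM-203 5 µg/cm², 6 with Min-U-Sil 5 and 1 with TPA, where 1 was higher. The TPA calls were Fkbp7 at -0.43 and P3h2 at 0.52 (adjusted p = 0.00233 and 0.000281), named after their values were seen. Also named in that way, P4ha3, a prolyl 4-hydroxylase subunit, changed by -1.35 with NM-203 5 µg/cm² (adjusted p = 4.77e-08) and by -0.64 with Min-U-Sil 5 (adjusted p = 0.00274). P3h3, a partner of Plod1 in mouse collagen hydroxylation, changed by -1.18 and -0.79 in the same comparisons (adjusted p = 2.24e-07 and 0.000171). Of 7 genes of copper supply, 3 were lower with NM-203 5 µg/cm², 2 with Min-U-Sil 5 and 1 with TPA, where 19.1%, 13.9% and 6.78% of all features were. With 7 genes, the 1 with TPA cannot be set apart from that share. The copper pump Atp7a, which loads lysyl oxidases with their metal and was also named after its values were seen, was lower in all 3, by -0.92, -0.66 and -0.47 (adjusted p = 2.32e-09, 1.74e-06 and 0.000499).

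Lists tied to inducers of these enzymes were mixed in direction. Of 13 hypoxia response genes, 5 were lower and 2 higher with NM-203 5 µg/cm², 5 and 1 with Min-U-Sil 5, and 3 and 1 with TPA. The counts of higher genes lie near the 14%, 11.6% and 4.89% of all features that were higher. Pgk1, a glycolytic enzyme named after its values were seen, was higher in all 3, by 0.91, 0.58 and 0.41 (adjusted p = 1.51e-07, 0.000228 and 0.0144). DE lowered 2, Egln1 by -0.41 and Ankrd37 by -0.37 (adjusted p = 0.0136 and 0.0355). Of 10 genes that are ligands or targets of TGF-beta signalling, 4 were lower and 1 higher with NM-203 5 µg/cm², 3 and 1 with Min-U-Sil 5, and 2 and 2 with TPA. The 1 higher gene with NM-203 5 µg/cm² and with Min-U-Sil 5 lies near the 14% and 11.6% of all features. The genes that were lower, named after their values were seen, were largely the ligands. With NM-203 5 µg/cm² they were Tgfb1, Tgfb2, Tgfb3 and the target Tgfbi (-0.59, -1.10, -0.93 and -1.45), with Min-U-Sil 5 Tgfb2, Tgfb3 and Tgfbi (-0.90, -0.61 and -0.76), and with TPA Tgfb2 and the target Acta2 (-0.94 and -0.66). Tgfbi was higher with TPA, by 0.62 (adjusted p = 0.00665). Skil, which encodes a repressor of TGF-beta signalling and was named after its values were seen, was higher in all 3, by 1.43, 1.29 and 0.77 (adjusted p = 8.99e-11, 2.09e-09 and 3.22e-05). Tagln, a smooth muscle actin-binding protein, was higher by 0.92 ± 0.34 at NM-203 2 µg/cm² (adjusted p = 0.0493). Tagln averaged -0.14 at that dose, -0.71 in the Min-U-Sil water of the same scan day and -1.06 in the other water. No gene of the 6 lists was called at NM-203 1 µg/cm².

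Fibroblast markers, of which Col1a1 and Col1a2 are also substrates, moved with these lists. Of the 9, 6 were lower with NM-203 5 µg/cm², 6 with Min-U-Sil 5 and 3 with TPA, where 19.1%, 13.9% and 6.78% of all features were. Their summed level was 9.09 to 9.52 in NM-203 5 µg/cm² cells and 9.70 to 9.92 in water, 9.42 to 9.58 in Min-U-Sil 5 cells and 9.78 to 10.29 in their water, and 9.60 to 9.73 in TPA cells and 9.88 to 10.06 in DMSO, on the log2 scale. The summed macrophage level overlapped in each of these pairs, at 0.98 to 2.32 in NM-203 5 µg/cm² cells and 0.92 to 2.37 in water, though 2 of its 5 measured genes were lower in all 3 comparisons. The endothelial marker Cdh5 was lower in all 3 and was well above background on 0 of 4 arrays of each treatment and on 4 of 4 of each control, a change of at least 2.88-fold with NM-203 5 µg/cm², 3.13-fold with Min-U-Sil 5 and 2.38-fold with TPA. The epithelial marker Krt8 was lower in all 3, by -1.66, -0.94 and -0.83. Cdh5 and Krt8 were each the 1 called gene of 3 measured in their lists. In the same order of comparisons, the endothelial list had medians of -0.06, -0.44 and 0.40. The epithelial list had medians of 0.26, -0.09 and -0.83. The part of these markers in the enzyme results was not tested.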

How the data were processed

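The 36 arrays were 1-colour Agilent arrays. Per the labels' protocols, total RNA was labelled with Cy3. Per the submitters' processing notes, the authors extracted spots with Agilent Feature Extraction 11.0.1.1, and per the file headers the deposited intensity was background-subtracted. The deposited value table held log2 values centred per probe and served as an alternative; its scaling is not stated, and for 33 of the 36 arrays the best-matching column was their own. The exceptions were Min-U-Sil 5 replicates 1, 2 and 3, each best matched by another replicate of that group. Scanner files were therefore used, and replicate numbers are those of the scanner files. Control and outlier spots were left out, and log2 intensity minus the array's 75th percentile was averaged per probe. Unversioned accessions named 32994 of 56605 probes through the RefSeq genes of GRCm38.p6; the array design used another build, so genes have no coordinates here. Probes were kept if 3 of 4 arrays in some group were well above background, and the brightest stood for each gene or unnamed accession. All groups were fitted at once with limma 3.58.1 (residual degrees of freedom, 27), R 4.3.3 and the package data.table (version 1.17.8). P-values were adjusted by Benjamini and Hochberg. The same fit was tested on simulated data. Figures used Python 3.11.15 and matplotlib 3.10.9. Members and lists were chosen with earlier results of these data known. Text names all members, up to 4 called list genes of largest change per comparison, and the nearest genes by r. Alternatives covered scaling, background correction, filter, probe choice, the deposited table, array weights, blocks for slide, scan day and replicate number, single slides, and each array left out.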

Additional observations from a re-analysis of the deposited data

Results flagged for a closer look

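In 4 of the 72 sets of 4 arrays, 1 array stood far from the other 3 by Dixon's test, which chance does in about 1 in 20 sets. Loxl1 was 4.27 in NM-203 2 µg/cm² replicate 4, against 3.22 to 3.39 in the others. Loxl3 was 0.64 in TPA replicate 1, against 1.15 to 1.22. Plod1 was 0.22 in NM-203 5 µg/cm² replicate 3, against 0.59 to 0.65, and 0.87 in water replicate 1, against 1.19 to 1.22.

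The change with NM-203 5 µg/cm² differed from the change with TPA in 3 genes by the limma test of the difference, by -0.63 for Lox (adjusted p = 0.00305), -0.77 for Loxl1 (adjusted p = 0.0175, or -0.67 and 0.0509 with slide as a block) and -0.72 for Loxl3 (adjusted p = 0.0102). All 4 NM-203 arrays lay below all 4 water arrays for each gene, while with TPA this held for Loxl1 alone.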

How the results depend on the processing

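Of 28 member results past the threshold, 453 of 548 alternative values kept the call, 95 lost it and 0 turned round, with the substitution of single probes counted apart. Loxl1 kept its call in all 23 alternatives for NM-203 5 µg/cm² and all 23 for Min-U-Sil 5. Reading Loxl4 from probe A_55_P2044143, chosen as an alternative after seeing the data, turned its change to -0.46 with NM-203 5 µg/cm² and -0.10 with Min-U-Sil 5.

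Counts of called members moved as follows. For DE (1 call) the count was 0 with the deposited table, the mean of all probes, no filter, the 2 groups alone, median scaling, slides 1, 2 or 3 alone and without slide 4, the last of these settings added after seeing the data. For Min-U-Sil 5 (6 calls) it was 3 with the mean of all probes or the 2 groups alone, 2 in slide 4, 1 in slide 5 and 2 without slide 4. For NM-203 2 µg/cm² (2 calls) it was 0 with the 2 groups alone, and 1 with the other water, median scaling, scan day or slide as a block. For TPA (2 calls) it was 1 with the mean of all probes, no filter, normexp, the 2 groups alone, median scaling or without slide 4, and 0 in slide 1. For NM-203 5 µg/cm² (4 calls) it was 2 in slide 3. Median scaling left 3 of 6 calls against DE and 0 of 3 against the TPA change. The cause was not tested, except that single slides and pairs of groups hold fewer arrays. A single slide left 1 array in at least 1 group of each pair, except slide 4 for Min-U-Sil 5 and its water.

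Leaving out 1 array gave 0 to 0 calls for NM-203 1 µg/cm², 2 to 4 for 2 µg/cm², 4 to 4 for 5 µg/cm², 0 to 1 for DE, 4 to 6 for Min-U-Sil 5 and 1 to 2 for TPA. It gave 4 to 6 for NM-203 against DE, 3 to 4 for 5 against 1 µg/cm², 3 to 4 for NM-203 against TPA changes, 0 to 0 for NM-203 against Min-U-Sil 5 and 0 to 1 for Min-U-Sil 5 against TPA.

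Replicate numbers did not pair arrays: 6 of 24 pairs of same-numbered arrays had deviations correlated above 0.1 (range -0.60 to 0.33), and 7 of 24 treated arrays correlated best with their own number. With the replicate number as a block, the counts were 0 for DE and 1 for TPA, and the other counts stayed within 1.5 times. Dim signal limited 1 probe, the second of Loxl2, which was above background on 35 of 36 arrays.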
